A study of Mus musculus with 8 samples.

Results

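The genes described here are the 10 markers of lipid-associated macrophages (LAMs) of the TREM2 type: Trem2, Tyrobp, Spp1, Gpnmb, Cd9, Lgals3, Itgax, Mmp12, Atp6v0d2 and Lipa. They were taken by name after the Ensembl identifiers of the count table were mapped to mouse gene symbols, and all 10 were found among the 31053 genes listed. The bulk RNA-seq compared brown adipose tissue (BAT) of 4 wild-type (WT) mice with BAT of 4 db/db mice, at 8 weeks of age in both genotypes and with no treatment in the labels. The strain label is C57BL6/J for both genotypes, and the methods name the db/db mice B6.BKS(D)-Leprdb/J. They carry a mutation of the leptin receptor, overeat and become obese and diabetic. According to the study's methods all mice were males and were fasted before sacrifice. The methods text and its list of resources name different vendors for the WT mice, so whether both genotypes came from 1 vendor is not settled. That list gives the db/db mice by stock number only, so whether it is the strain named in the methods is not settled here. The labels give the cell type as Stromal Vascular Fraction, the adipose cells left once mature adipocytes are removed. Yet the 10 listed brown adipocyte genes, Ucp1 among them, summed to 14990-17384 CPM (counts scaled to a common library total) in WT and 9840-13684 CPM in db/db libraries, so adipocyte RNA was abundant in all 8.

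LAMs are macrophages that gather around lipid-laden or dying adipocytes in obese fat, take up lipid and digest it in lysosomes. TREM2 is a surface receptor for lipids, lipoproteins and apoptotic cells that signals through the adaptor TYROBP, and mouse macrophages without TREM2 form few of these cells. The other markers act in adhesion and matrix turnover (Itgax, Cd9, Spp1, Lgals3, Mmp12) or in the lysosome (Gpnmb, Atp6v0d2, Lipa). Adgre1, the gene of a surface receptor carried by most mouse macrophages, served as the measure of macrophage content.

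The libraries held 2374079-2615009 counts in WT and 2382722-3240074 counts in db/db mice. At this depth 3 counts, taken as the floor of detection, equalled 0.902-1.33 CPM, and a marker near that floor was measured with large counting error. The leptin receptor gene Lepr had 0 counts in all 8 libraries, so the mutated gene gave no check of the genotype labels. The libraries also differed in skeletal muscle RNA: 12 of 12 listed muscle genes were higher in db/db mice, and their sum was 431-1517 CPM in WT and 2328-11595 CPM in db/db libraries, highest in db/db 1. These sums did not overlap, so a muscle score added to a model cannot be separated from genotype. A call that ended with that score does not show whether muscle RNA had a part in it. In bulk RNA, fewer or more cells of a type cannot be told apart from less or more RNA per cell. P-values given here set the difference between the genotypes against the spread between these libraries.

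BAT of db/db mice held more RNA of 9 of the 10 LAM markers. With the edgeR quasi-likelihood test, 9264 genes passed the filter on low counts, and 9 markers were among them. All 9 tested markers were higher in db/db mice, against 15.8% of all tested genes, and in all 9 every db/db library lay above every WT library, against 15.3% of tested genes. The median log2 fold change was 3.88 over the 9 markers and 0.01 over all tested genes. Of the 9, Gpnmb, Lgals3 and Lipa were above the filter level in all 4 WT libraries and Tyrobp in 3, whereas Trem2, Cd9, Itgax, Mmp12 and Atp6v0d2 passed only through their db/db libraries, so their presence among the tested genes already required a higher level there and the count and median only describe the list. Spp1 did not reach the filter. Among the 4 markers above the filter level in 3 or 4 WT libraries, the increases were 1.81-fold for Lipa, 6.87-fold for Tyrobp, 10.3-fold for Gpnmb and 23.3-fold for Lgals3. The fitted folds of Trem2, Mmp12 and Atp6v0d2 rest on 1-2 counts over all WT libraries, so these 3 were not ranked.

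**Figure D1:**
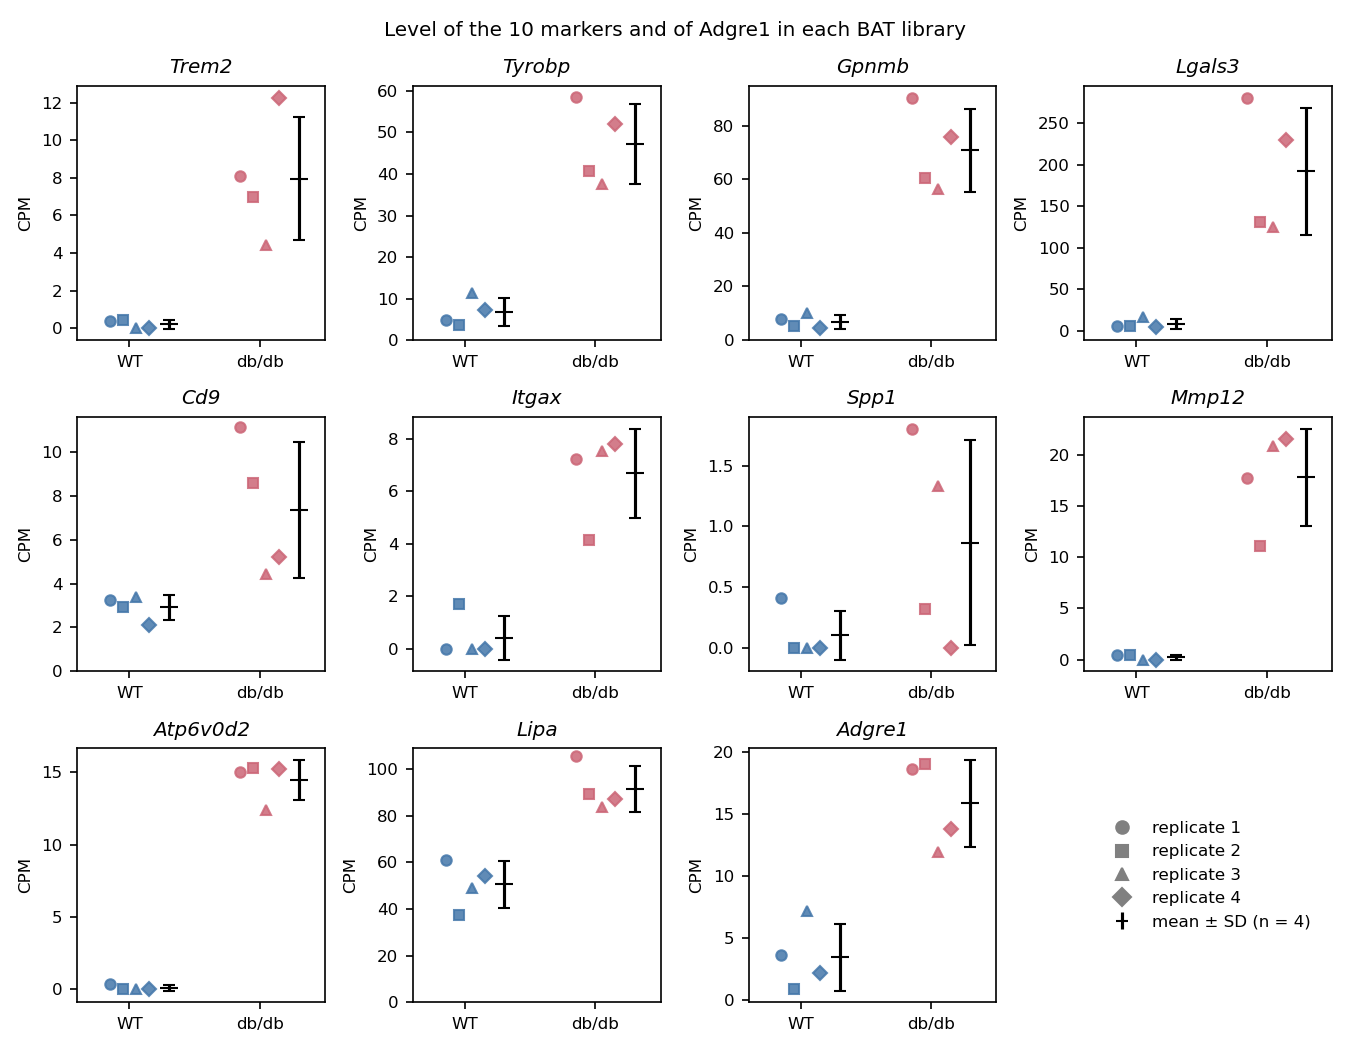
Level of the 10 LAM markers and of Adgre1 in BAT, in CPM on linear axes, with 1 point per library (marker shape gives the replicate) and the mean ± SD of 4 libraries beside each genotype. The db/db libraries sit above all WT libraries for each gene except Spp1, and Trem2, Mmp12 and Atp6v0d2 lie at or next to 0 in WT.

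Trem2 (ENSMUSG00000023992, chr17:48346401-48354147, plus strand, GRCm38) was almost undetected in WT BAT. Its counts were 1, 1, 0 and 0 in WT 1 to 4 and 27, 22, 10 and 33 in db/db 1 to 4, or 8.12, 7.0, 4.43 and 12.3 CPM in the latter. No WT library reached the floor, all 4 db/db libraries exceeded it, and db/db 4 was the highest. The log2 fold change was 5.01 ± 0.67 (SE, n = 4 per genotype, edgeR adjusted p = 2.79e-05). With only 2 counts over all WT libraries, the ratio of pooled CPM was 39.7, with a 95% exact interval of 10.7-333 that covers counting error only.

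The 250 bases before the RefSeq start of Trem2 (GRCm38.p6, chr17:48346151-48346400, plus strand) are shown because Trem2 names this macrophage state. Windows of this kind were found for 8 of the 10 markers, and were searched on both strands for 4 motifs that were picked after the expression values had been seen: the lysosomal CLEAR core TCACGTG bound by TFEB and TFE3, the M-box TCATGTG bound by MITF, the PU.1 motif GAGGAAGT and the AP-1 motif in the loose form TGANTCA, where N is any base. Capitals mark the match to the loose AP-1 form, TGAATCA, which has A at N and begins 9 bases before the start.
Trem2: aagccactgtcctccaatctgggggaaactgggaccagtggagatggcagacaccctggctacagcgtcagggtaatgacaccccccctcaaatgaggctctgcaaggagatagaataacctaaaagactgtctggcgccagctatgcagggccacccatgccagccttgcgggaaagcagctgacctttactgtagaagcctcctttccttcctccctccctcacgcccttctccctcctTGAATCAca
The 8 markers had 10 windows, since Mmp12 and Spp1 have 2 each. The loose AP-1 letters stood in 3 of the 10 (Trem2, Itgax and the second of Mmp12), against 6.75% of the 32851 mouse windows of this length. N was A in Trem2 and G in Itgax and Mmp12. PU.1 letters stood in 2 windows (2.44% of all), the M-box in 1 (3.25%) and the CLEAR core in 0 (3.13%). A match describes letters in these windows and nothing about binding.

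Tyrobp (ENSMUSG00000030579, chr7:30413760-30417585, plus strand) encodes the adaptor through which TREM2 and several other myeloid receptors signal. It gave 4.86, 3.8, 11.3 and 7.22 CPM in WT 1 to 4 and 58.4, 40.7, 37.7 and 52.1 CPM in db/db 1 to 4. The groups were well apart, with WT 3 the highest of its group and db/db 1 the highest of all. Tyrobp rose by a log2 fold change of 2.78 ± 0.27 (SE, n = 4 per genotype, edgeR adjusted p = 9.93e-07), a 6.87-fold higher level.

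Genes of the pathway downstream of TREM2 and TYROBP were mostly too low to test. Of 13 listed genes 4 passed the filter, and all 4 were higher in db/db mice, with a median log2 fold change of 1.56. Grb2 was above the filter level in all 4 WT libraries, Lat2 and Vav1 in 1 each and Ptpn6 in 0. Lat2, Vav1 and Ptpn6 thus needed their db/db libraries to pass, so the count and the median only describe the list. The calls below were not all stable. Each of the 4 ended with a score of the listed skeletal muscle genes added to the model (Lat2 1.33, adjusted p = 0.288, Vav1 1.18, adjusted p = 0.632, Ptpn6 1.17, adjusted p = 0.492, and Grb2 0.62, adjusted p = 0.394). Vav1 also lost its call without WT 2, WT 3 or WT 4 (1.39-1.63, adjusted p = 0.074-0.0837), Grb2 without WT 1, WT 3 or db/db 4 (0.48-0.53, adjusted p = 0.0629-0.0775) and Ptpn6 without WT 2 (1.23, adjusted p = 0.0591) or with every gene of at least 1 count admitted (1.31, adjusted p = 0.0515). Lat2, an adaptor of myeloid receptor signalling, was higher by 1.81 ± 0.35 (SE, adjusted p = 0.000824) on the log2 scale. Vav1, a nucleotide exchange factor, was higher by 1.76 ± 0.56 (adjusted p = 0.0252), and Ptpn6, a phosphatase that restrains such receptors, by 1.36 ± 0.39 (adjusted p = 0.0155). Grb2, a widely expressed adaptor, was higher by 0.60 ± 0.18 (adjusted p = 0.0211). Syk, the kinase recruited by phosphorylated TYROBP, was among the 9 genes not tested, with 4-6 counts in WT and 7-27 counts in db/db libraries, and its groups overlapped in CPM. Hcst, the other adaptor that pairs with TREM2, had 2-8 counts in WT and 3-22 counts in db/db libraries, and its groups overlapped too.

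Gpnmb (ENSMUSG00000029816, chr6:49036546-49070929, plus strand) encodes a transmembrane glycoprotein of late endosomes and lysosomes. It gave 7.69, 5.06, 10.1 and 4.24 CPM in WT 1 to 4 and 90.6, 60.4, 56.3 and 75.9 CPM in db/db 1 to 4. The lowest db/db library lay well above the highest WT library. This gave a log2 fold change of 3.36 ± 0.25 (SE, n = 4 per genotype, edgeR adjusted p = 4.19e-08), or 10.3-fold.

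Lgals3 (ENSMUSG00000050335, chr14:47367751-47386160, plus strand), which encodes the sugar-binding lectin galectin-3, had 10-45 counts in WT and 283-935 counts in db/db libraries. Its level was 5.67, 5.49, 16.9 and 4.24 CPM in WT 1 to 4 and 281.3, 131.1, 125.4 and 230.6 CPM in db/db 1 to 4. WT 3 stood above the other WT libraries, and db/db 1 and 4 above db/db 2 and 3, without overlap of the genotypes. Lgals3 rose by a log2 fold change of 4.54 ± 0.35 (SE, n = 4 per genotype, edgeR adjusted p = 7.83e-08), or 23.3-fold, and 5.19 without WT 3. Lgals1, the gene of a related lectin, was higher by 1.44 ± 0.14 (SE, adjusted p = 8.59e-07) on the log2 scale.

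Cd9 (ENSMUSG00000030342, chr6:125460266-125494791, minus strand), the gene of a tetraspanin used to sort LAMs, had 8, 7, 9 and 5 counts in WT 1 to 4 and 37, 27, 10 and 14 counts in db/db 1 to 4. In CPM this was 3.24, 2.95, 3.38 and 2.12 in WT and 11.1, 8.59, 4.43 and 5.21 in db/db libraries. The groups did not overlap, but db/db 3 lay close to WT 3. The log2 fold change was 1.33 ± 0.40 (SE, n = 4 per genotype, edgeR adjusted p = 0.0192). This call ended without WT 4 (1.20, adjusted p = 0.0643) and without db/db 1 (1.05, adjusted p = 0.0949). The tetraspanin gene Cd81 gave a log2 fold change of 0.32 ± 0.12 (SE, adjusted p = 0.0513). It was called higher with DESeq2 (adjusted p = 0.031), voom (0.0413), at least 10 counts in every library (0.024) and without db/db 1 (0.0482).

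Itgax (ENSMUSG00000030789, chr7:128129547-128150657, plus strand) encodes the integrin alpha chain of CD11c, which is shared by dendritic cells and by macrophages of obese fat. Its counts were 0, 4, 0 and 0 in WT 1 to 4 and 24, 13, 17 and 21 in db/db 1 to 4. All 4 WT counts came from WT 2, and the lowest db/db library was db/db 2. The log2 fold change was 3.88 ± 0.71 (SE, n = 4 per genotype, edgeR adjusted p = 0.000506), and the ratio of pooled CPM was 16.2 (95% exact interval 6.07-61.0). Without WT 2 all WT libraries were at 0. The fitted value of 7.17 (adjusted p = 0.000173) then depends on the prior count and is no check of stability. Without db/db 1 or db/db 4 the gene no longer passed the filter. Its partner, the beta chain gene Itgb2, had 0-2 counts in WT and 25-42 counts in db/db libraries, a log2 fold change of 4.73 ± 0.51 (SE, adjusted p = 3e-06). Itgb2 too was tested only through its db/db libraries. Itgam, the alpha chain of the related CD11b integrin, was higher by 2.18 ± 0.51 (SE, adjusted p = 0.00399), and by 1.45 with the muscle score, which ended the call (adjusted p = 0.451). Of the dendritic cell list, 2 of 9 genes could be tested. Clec10a, a lectin that macrophages also carry, was higher by 2.02 on the log2 scale (adjusted p = 6.23e-06), or 1.19 with the muscle score (adjusted p = 0.0537). Zbtb46, a factor of classical dendritic cells, gave -0.47 (adjusted p = 0.0927), and was called lower without db/db 2 (-0.60, adjusted p = 0.0467). The window before Itgax (GRCm38.p6, chr7:128129300-128129549, plus strand) holds the AP-1 letters, in capitals, 56 bases before the start.
Itgax: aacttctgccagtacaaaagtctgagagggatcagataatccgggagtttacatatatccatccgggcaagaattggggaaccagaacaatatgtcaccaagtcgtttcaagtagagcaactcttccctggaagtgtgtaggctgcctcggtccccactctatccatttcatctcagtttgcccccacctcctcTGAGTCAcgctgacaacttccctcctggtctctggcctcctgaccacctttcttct

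Mmp12 (ENSMUSG00000049723, chr9:7344381-7369499, plus strand), the gene of macrophage elastase, had 1, 1, 0 and 0 counts in WT 1 to 4 and 59, 35, 47 and 58 counts in db/db 1 to 4. In db/db libraries this was 17.7, 11.1, 20.8 and 21.6 CPM, with db/db 2 the lowest, and no WT library reached the floor. Its log2 fold change was 6.15 ± 0.55 (SE, n = 4 per genotype, edgeR adjusted p = 3.29e-07), and the ratio of pooled CPM was 86.0 (95% exact interval 23.5-715). Mmp1b overlaps its exons on the other strand but had 0 counts in all libraries. RefSeq gives Mmp12 2 starts, and the windows before both are shown because together they hold 3 of the motif matches. The window before the first start (GRCm38.p6, chr9:7344147-7344396, plus strand) has the PU.1 letters in reverse complement, 88 bases before the start. The window before the second (chr9:7347124-7347373) has the M-box in reverse complement at 83 bases and the AP-1 letters at 44 bases, all in capitals.
Mmp12, first start: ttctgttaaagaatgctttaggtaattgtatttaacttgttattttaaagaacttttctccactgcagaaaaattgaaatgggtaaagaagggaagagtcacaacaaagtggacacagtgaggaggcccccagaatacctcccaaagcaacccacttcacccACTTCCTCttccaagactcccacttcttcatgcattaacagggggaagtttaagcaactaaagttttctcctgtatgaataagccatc
Mmp12, second start: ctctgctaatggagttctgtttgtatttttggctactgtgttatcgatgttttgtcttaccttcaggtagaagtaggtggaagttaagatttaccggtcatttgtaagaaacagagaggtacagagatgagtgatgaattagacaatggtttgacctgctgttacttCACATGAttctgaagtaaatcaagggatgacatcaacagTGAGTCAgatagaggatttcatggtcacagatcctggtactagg
Of other metalloproteinase genes, Mmp19 was higher by 1.56 ± 0.25 (SE, adjusted p = 0.00014) on the log2 scale, or 1.28 with the muscle score (adjusted p = 0.123). Mmp2 was higher by 1.30 ± 0.24 (SE, adjusted p = 0.00048) on the log2 scale, or 0.92 with the muscle score (adjusted p = 0.293), and Mmp14 gave 0.52 ± 0.24 (adjusted p = 0.124).

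Spp1 (ENSMUSG00000029304, chr5:104435118-104441050, plus strand), which encodes the secreted adhesion protein osteopontin, was the exception. It had 1, 0, 0 and 0 counts in WT 1 to 4 and 6, 1, 3 and 0 counts in db/db 1 to 4. Only db/db 1 exceeded the floor of 3 counts, and the groups overlapped, since db/db 4 was at 0. The ratio of pooled CPM was 8.64 with a 95% exact interval of 1.23-375. With every gene of at least 1 count admitted to the test, its log2 fold change was 2.58 (edgeR adjusted p = 0.226). No difference in Spp1 was called in these libraries. Cd44, the gene of an osteopontin receptor, had 2-8 counts in WT and 37-63 counts in db/db libraries, a log2 fold change of 2.91 ± 0.36 (SE, adjusted p = 1.41e-05). At that WT level Cd44 was tested only through its db/db libraries.

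Atp6v0d2 (ENSMUSG00000028238, chr4:19876841-19922605, minus strand) encodes the macrophage and osteoclast form of a subunit of the proton pump that acidifies lysosomes. Its counts were 1, 0, 0 and 0 in WT 1 to 4 and 50, 48, 28 and 41 in db/db 1 to 4. The db/db libraries, at 15, 15.3, 12.4 and 15.3 CPM, were closer together than for any other marker (1.23-fold from lowest to highest). Its log2 fold change was 6.62 ± 0.58 (SE, n = 4 per genotype, edgeR adjusted p = 2.88e-07). The ratio of pooled CPM was 144, with a 95% exact interval of 25.5-5732 that reflects the single WT count. Without WT 1, which held that count, the fitted value was 8.28 and depends on the prior count. The paralogue Atp6v0d1, which most cells express, gave a log2 fold change of 0.28 ± 0.19 (SE, adjusted p = 0.299). The pump genes Atp6v1a and Atp6v1b2 were higher by 0.47 ± 0.12 (SE, adjusted p = 0.00691) and 0.52 ± 0.14 (adjusted p = 0.00828), and both calls ended with the muscle score (0.38, adjusted p = 0.481, and 0.15, adjusted p = 0.834).

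Lipa (ENSMUSG00000024781, chr19:34492318-34527474, minus strand) encodes lysosomal acid lipase, which frees cholesterol and fatty acids from ingested lipid and is active in most cells. It was well counted in WT libraries, at 89-151 counts each. Its level was 61.1, 37.6, 49.2 and 54.3 CPM in WT 1 to 4 and 105.6, 89.4, 83.8 and 87.0 CPM in db/db 1 to 4. The groups did not overlap, and the log2 fold change was 0.86 ± 0.16 (SE, n = 4 per genotype, edgeR adjusted p = 0.000587), or 1.81-fold. The lipase gene Lipe, which acts on lipid droplets of adipocytes rather than in lysosomes, gave 0.04 ± 0.13 (SE, adjusted p = 0.868). Npc1, which moves freed cholesterol out of lysosomes, fell by 1.33 ± 0.16 (SE, adjusted p = 7.92e-06) on the log2 scale.

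The markers did not rank the libraries alike. Among db/db libraries the highest value was in db/db 1 for 6 markers, in db/db 4 for 3 and in db/db 2 for 1, and the lowest was in db/db 3 for 7. Db/db 1 was also the library with the most muscle RNA and the most general macrophage RNA. A skeletal muscle score, which cannot be separated from genotype, was added to the edgeR model. Calls over all 9264 tested genes then fell from 2568 to 411, and 6 of the 9 markers remained called. Cd9 (0.81, adjusted p = 0.679), Itgax (3.63, adjusted p = 0.078) and Lipa (0.77, adjusted p = 0.191) did not, and neither did Adgre1 (2.32, adjusted p = 0.0797). Without db/db 1, 8 markers were tested and 7 were called, against 2250 of 9385 genes.

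The markers were next set beside the increase of macrophage RNA as a whole. Adgre1 (ENSMUSG00000004730, chr17:57358691-57483527, plus strand) had 9, 2, 19 and 5 counts in WT 1 to 4 and 62, 60, 27 and 37 counts in db/db 1 to 4. The groups did not overlap, WT 2 was the lowest, and the log2 fold change was 2.17 ± 0.41 (SE, n = 4 per genotype, edgeR adjusted p = 0.0006), or 2.80 without WT 3. Of 15 listed general macrophage genes 14 were tested, 12 were higher in db/db mice and 0 lower. Their median log2 fold change was 2.18, and they ranged from -0.48 for the efferocytosis receptor Mertk, which did not pass the test, to 3.19 for the protease Ctss. The log2 fold changes of 6 markers (Gpnmb, Itgax, Lgals3, Trem2, Mmp12 and Atp6v0d2) exceeded that of all 14 general genes. Itgax, Trem2, Mmp12, Atp6v0d2 and Cd9 could only be tested through their db/db libraries, so their place in this order is a description. Tyrobp lay above 11 of the 14, whereas Cd9 lay above 2 and Lipa above 1.

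**Figure D2:**
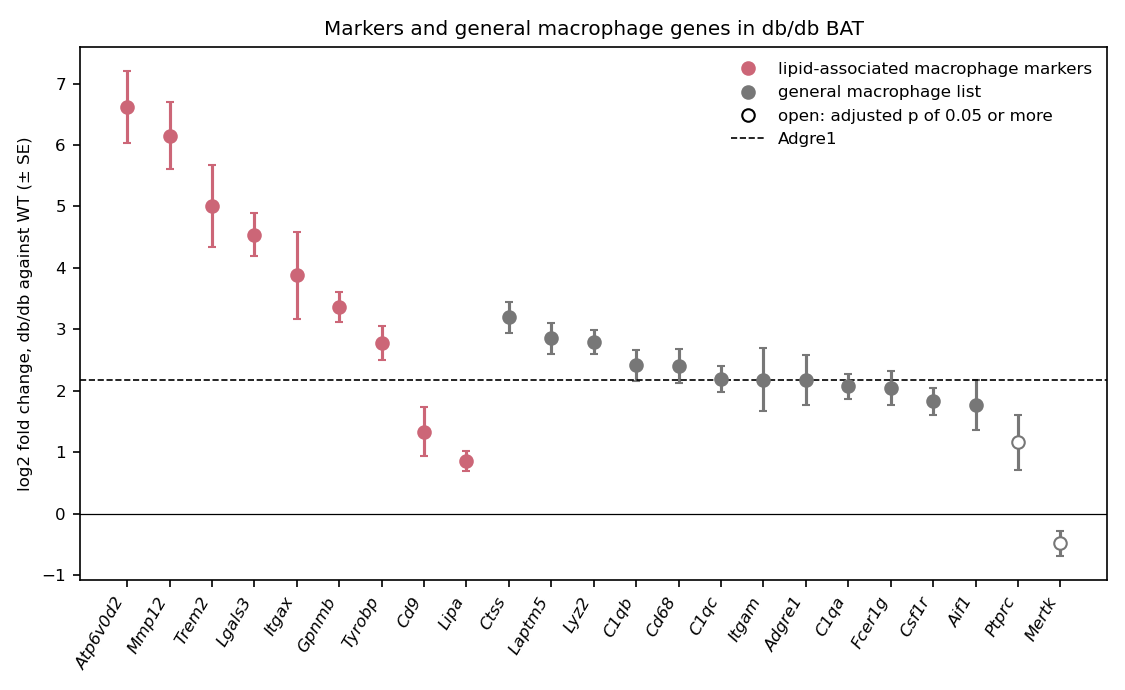
Log2 fold change of db/db against WT (edgeR, ± SE, n = 4 per genotype) for the 9 tested LAM markers and the 14 tested general macrophage genes, with open points where the adjusted p was 0.05 or more and a dashed line at Adgre1 (2.17). From Gpnmb upwards 6 markers lie above Ctss, the highest general gene, and Cd9 and Lipa lie below the dashed line.

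Relative to Adgre1, in a fit with each library's Adgre1 count as offset, 4 markers were higher in db/db mice, 1 was lower and 4 did not pass the test. Since Adgre1 itself rose, this fit called 90.9% of 9263 genes (0.529% higher and 90.4% lower), with a median of -2.56 on the log2 scale. The markers higher than this measure were Atp6v0d2 by 4.89 ± 1.19 (SE, n = 4 per genotype, edgeR adjusted p = 0.000123), Mmp12 by 4.25 ± 1.05 (adjusted p = 0.000156), Trem2 by 3.02 ± 1.11 (adjusted p = 0.00787) and Lgals3 by 2.37 ± 0.70 (adjusted p = 0.000992). Lipa was the one that was lower, falling by 1.64 ± 0.65 (adjusted p = 0.0137). Itgax (1.53 ± 1.0, adjusted p = 0.136), Gpnmb (1.07 ± 0.67, adjusted p = 0.119), Tyrobp (0.54 ± 0.67, adjusted p = 0.435) and Cd9 (-1.13 ± 0.75, adjusted p = 0.14) could not be told apart from Adgre1. With limma on log2 ratios in place of the offset, the call of Trem2 ended (0.94, adjusted p = 0.113), and Mmp12 stood at 2.07, Atp6v0d2 at 1.98 and Itgax at 0.64. Atp6v0d2, Mmp12, Trem2 and Itgax were tested only through their db/db libraries, so their calls are not set against the share of all genes here or below.

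Adgre1 was itself a thin measure, with 2-19 counts per WT library and an 8.46-fold range of CPM among them. All ratios share this denominator. Without WT 2, where Adgre1 was lowest, Gpnmb (1.45, adjusted p = 0.0114) was called higher as well, and so was Itgax (6.81, adjusted p = 0.000257), whose 4 WT counts all lay in that library, so that its value depends on the prior count. Mmp12 then stood at 5.17 and Trem2 at 3.96. Without WT 3, where it was highest, Mmp12 stood at 3.39, Atp6v0d2 at 4.04 and Itgax at 0.73, the call of Trem2 ended (2.17, adjusted p = 0.0514) and Cd9 was called lower (-1.42, adjusted p = 0.046), and without db/db 2 the call of Lipa ended (-1.55, adjusted p = 0.0549). Without WT 1 and its single count, Atp6v0d2 stood at 7.84, which depends on the prior count. In counts pooled over each genotype, there were 2.34 Lgals3 counts per Adgre1 count in WT and 12.1 in db/db mice, a ratio of 5.16 (95% exact interval 3.27-7.99, counting error only). For Trem2 the pooled ratio was 8.66 (2.13-75.6), for Mmp12 18.7 (4.67-162) and for Atp6v0d2 31.4 (5.14-1284). For Gpnmb it was 2.27 (1.42-3.58) and for Itgax 3.53 (1.20-14.1). The interval for Tyrobp (1.51, 0.944-2.39) and that for Cd9 (0.571, 0.317-1.04) spanned 1, and for Lipa the ratio was 0.398 (0.265-0.584).

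Other measures of macrophage content gave more calls. The other 14 genes of the general macrophage list summed to 207-258 CPM in WT and 859-1527 CPM in db/db libraries, and WT libraries differed only 1.25-fold in that sum. Relative to this sum 1.1% of tested genes were higher and 93.4% lower, and of the markers tested on their WT level too, Gpnmb and Lgals3 were higher and Lipa lower. Trem2, Itgax, Mmp12 and Atp6v0d2, tested only through db/db libraries, were called higher as well. The calls not made relative to Adgre1 were Gpnmb at 1.12 ± 0.34 (SE, n = 4 per genotype, edgeR adjusted p = 0.00107) and Itgax at 1.71 ± 0.80 (adjusted p = 0.0342). Relative to the complement genes C1qa, C1qb and C1qc (1.12% of genes higher and 92.4% lower), and relative to the endosomal glycoprotein gene Cd68, which is also listed among the other LAM genes and had 8-17 counts in WT libraries (0.961% higher and 93.3% lower), Gpnmb and Lgals3 were again higher and Lipa lower. Trem2, Itgax, Mmp12 and Atp6v0d2 were called higher there too. Tyrobp and Cd9 passed the test against none of the 4 measures.

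**Figure D3:**
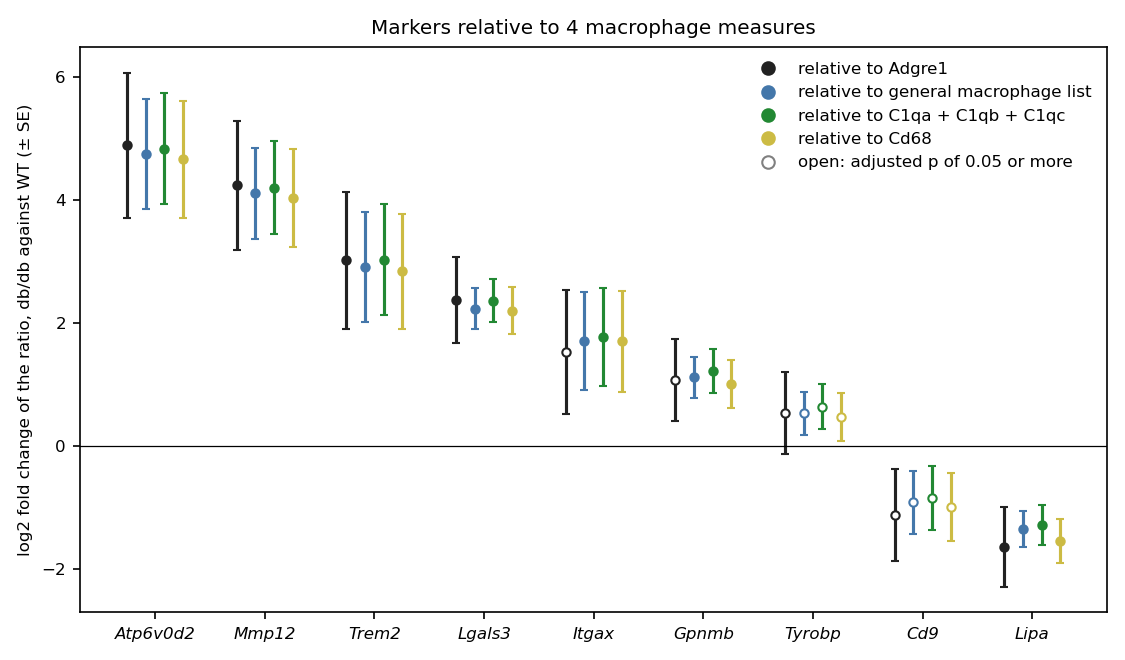
Log2 fold change of each tested marker relative to Adgre1, to the summed general macrophage list, to C1qa, C1qb and C1qc, and to Cd68 (edgeR with the measure as offset, ± SE, n = 4 per genotype), with open points where the adjusted p was 0.05 or more. Atp6v0d2, Mmp12, Trem2 and Lgals3 are above 0 and Lipa is below 0 against all 4 measures, and Gpnmb and Itgax are open against Adgre1 alone.

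Ratios were also compared library by library, as log2 ratios with a prior count of 2, in an exact two-sided permutation test of 4 against 4 libraries whose smallest possible p is 0.0286. Over the 10 markers, 2 reached that p relative to Adgre1. The log2 ratio of Lgals3 to Adgre1 was 0.55, 1.97, 1.16 and 0.80 in WT 1 to 4 and 3.86, 2.73, 3.31 and 3.99 in db/db 1 to 4. The groups did not overlap, as for 0.238% of tested genes in that direction, and the means differed by 2.36 (exact permutation p = 0.0286). Atp6v0d2 differed by 1.98 with the same p, although its WT ratios rest almost wholly on the prior count. With a prior count of 0.5 its difference was 3.41. Those of Mmp12, Trem2 and Itgax were then 3.24, 2.05 and 1.86, against 2.07, 0.94 and 0.64 with a prior count of 2.

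For Gpnmb the ratio was 0.94, 1.87, 0.47 and 0.80 in WT and 2.23, 1.63, 2.17 and 2.4 in db/db libraries, so that WT 2 lay inside the db/db range (difference 1.09, exact permutation p = 0.0571). For Lipa it was 3.82, 4.59, 2.66 and 4.26 in WT and 2.45, 2.18, 2.73 and 2.6 in db/db libraries, where db/db 3 overlapped WT 3, whereas 77.8% of tested genes did not overlap in that direction (difference -1.34, exact permutation p = 0.0571). Tyrobp differed by 0.55 (exact permutation p = 0.171) and Cd9 by -1.13 (exact permutation p = 0.0571). With the general macrophage list in place of Adgre1, 8 of the 10 markers reached 0.0286. Of all tested genes, 0.432% separated the genotypes with a higher ratio and 90.2% with a lower one (0.507% and 89% for C1qa, C1qb and C1qc, 0.302% and 89.6% for Cd68). Lgals3 and Gpnmb, which were counted in every library, had higher ratios in db/db libraries, and Cd9 and Lipa had lower ones, as most genes did. The ratios of Trem2, Mmp12 and Atp6v0d2 (higher) rest on the prior count in WT libraries. Spp1 (lower) stood at or under the floor in 7 libraries, and its pooled counts per Adgre1 count gave a ratio of 1.88 (95% exact interval 0.252-84.0), the other direction.

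**Figure D4:**
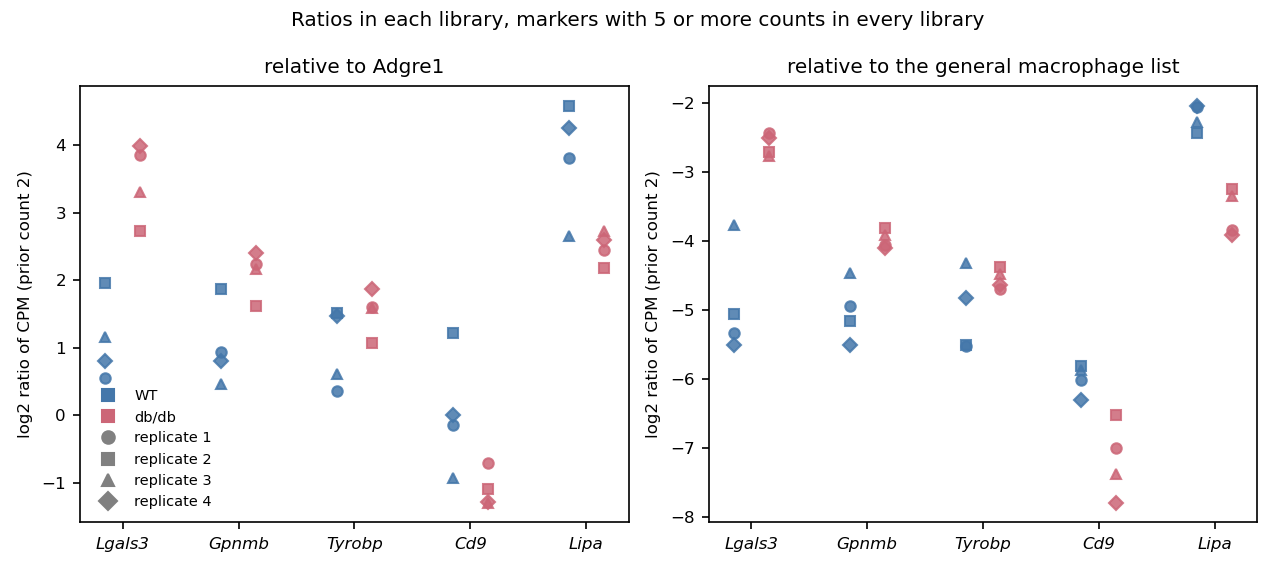
Log2 ratio of CPM (prior count 2) of the 5 markers with 5 or more counts in every library to Adgre1 (left) and to the general macrophage list (right), 1 point per library, WT in blue and db/db in red. Lgals3 separates the genotypes in both panels, Gpnmb, Cd9 and Lipa separate them only in the right panel, and Tyrobp overlaps in both.

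Of 30 other genes reported for LAMs, 26 were tested, 18 were higher in db/db mice, 2 were lower and 6 did not pass, with a median log2 fold change of 0.67. Anxa1, a regulator of inflammation, was higher by 4.22 ± 0.34 (SE, n = 4 per genotype, edgeR adjusted p = 8.87e-08) and, at 4-6 counts in WT, was tested only through its db/db libraries. Fabp4, a fatty acid carrier that adipocytes also make in bulk, was higher by 0.65 ± 0.21 (adjusted p = 0.0309). The groups of Fabp4 overlapped, and its call ended without WT 1, WT 2, WT 4, db/db 2 or db/db 3 (0.47-0.64, adjusted p = 0.0705-0.122) and with the muscle score (0.60, adjusted p = 0.52). Lpl, the secreted lipoprotein lipase, fell by 0.46 ± 0.14 (adjusted p = 0.0232), a call that ended without WT 3 (-0.39, adjusted p = 0.0693), db/db 2 (-0.46, adjusted p = 0.0509) or db/db 4 (-0.40, adjusted p = 0.0618) and with the muscle score (-0.68, adjusted p = 0.235). Apoe, a lipid carrier, gave -0.14 ± 0.14 (adjusted p = 0.496). Relative to Adgre1, 16 of the 26 were lower, as were 90.4% of all tested genes, and Anxa1 alone was called higher.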

How the data were processed

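Bulk RNA-seq counts of 8 BAT libraries, 4 WT and 4 db/db, were analysed. Per the study's methods, the authors made the counts from single-end reads by bbduk trimming, STAR alignment to mm10 and HTSeq counting by gene. The deposited table holds 1 column of whole-number counts per library by Ensembl identifier. The submitters' processing notes instead name Trimmomatic and HISAT2. Use of strand and collapse of molecular identifiers are not given in the sources used here, so intervals and floors cover counting error only and reads of overlapping antisense genes cannot be told apart. A deposited table of log2 normalized values was not used.

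Of 31053 genes, 31011 matched GENCODE M21 (GRCm38) by identifier. Groups came from the sample labels, and nothing in the tables named other samples. Counts were tested with edgeR 4.0.16 (R 4.3.3): filterByExpr (count threshold 10, total threshold 15), TMM scaling, the quasi-likelihood test and Benjamini-Hochberg adjustment over all tested genes at 0.05. CPM values use TMM-scaled totals. The SE given with edgeR values is the absolute log2 fold change divided by the square root of the quasi-likelihood F. It is approximate, most of all for genes with few WT counts. For changes relative to a macrophage measure, the logarithm of its count plus 1 replaced the library size as offset. Log2 ratios used a prior count of 2 and an exact two-sided permutation test without adjustment. Tests on simulated counts of this comparison recovered 100 of 100 genes changed by 2 on the log2 scale and 66 of 100 changed by 1, with 9 false calls among 9267 genes. The changed genes were drawn from well counted genes and all genes had the same fixed dispersion. These rates therefore do not cover markers with few counts in WT libraries. No pair of libraries of one genotype was closer than sampling noise allows (lowest chi-square per degree of freedom 4.20). Alternatives were DESeq2 1.42.0, limma 3.58.1 with voom, other scalings and filters, a muscle covariate, the replicate number as a block and each library left out.

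The markers and gene lists were chosen with earlier results of these data known. Named genes were the markers, Adgre1, Lepr, close paralogues, and per list the 3 most abundant genes and the 2 with the largest passing change. Syk, Mertk, Mmp2, Mmp14, Mmp19, Nr1h2, Atp6v1a, Atp6v1b2, Mitf, Tfeb, Tfe3, Abca1, Ly6c2, Ccr2, Mki67 and Cd79a were added after their values were seen. Promoter sequences are RefSeq's (GRCm38.p6).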

Additional observations from a re-analysis of the deposited data

Results flagged for a closer look

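In each genotype, the 4 libraries were examined for a single library far from the other 3 (Dixon's test at 95%). Of 42 sets of 4 values, over the CPM of the markers and of Adgre1 and the log2 ratios of the markers to Adgre1, 6 held such a library. Chance gives 2.1 in sets of continuous values, but 3 of the 6 hold 1 library with counts beside 3 at 0, which this rule always picks out, so the numbers are not comparable. For Spp1, WT 1 stood at 0.405 CPM (1 count) and the other WT libraries at 0, and for Atp6v0d2 WT 1 likewise stood at 0.405 CPM (1 count). For Itgax, WT 2 stood at 1.69 CPM (4 counts) while the other WT libraries were at 0, and among db/db libraries db/db 2 stood at 4.14 CPM, below the 7.22-7.81 CPM of the others. For Atp6v0d2, db/db 3 stood at 12.4 CPM, below the 15-15.3 CPM of the other db/db libraries. For Lgals3, WT 3 stood at 16.9 CPM, above the 4.24-5.67 CPM of the other WT libraries. WT 3 also had the highest WT level of Tyrobp, Gpnmb and Adgre1.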

How the results depend on the processing

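All 9 tested markers remained called under DESeq2, voom, DESeq2's size factors, library totals and the admission of every gene with at least 1 count. With at least 10 counts required in every library only 3 markers were tested, and all 3 were called. With the muscle score as covariate 6 markers were called, and the calls fell to 411 of all genes (2568 without it) and to 22 of the 122 tested genes of the lists (87 without it), with Folr2 (1.36, adjusted p = 0.369), Nceh1 (1.77, adjusted p = 0.292) and S100a8 (2.35, adjusted p = 0.072) among those lost. Leaving out each library gave 7-9 markers, 2236-2483 genes and 80-88 listed genes. Relative to Adgre1, where 90.9% of all tested genes were called, 5 markers were called, and 4-7 when a library was left out. Itgax and Gpnmb were called without WT 2 (adjusted p = 0.000257 and 0.0114), Cd9 was called lower without WT 3 (-1.42, adjusted p = 0.046), and the calls of Trem2 (2.17, adjusted p = 0.0514, without WT 3) and Lipa (-1.55, adjusted p = 0.0549, without db/db 2) ended. The count of markers at the smallest permutation p, 2 for Adgre1, was 8 with the general macrophage list, 7 with C1qa, C1qb and C1qc and 6 with Cd68, and in each of these 3 Spp1, Mmp12 and Atp6v0d2 were included, whose ratios rest on the prior count. The cause of these shifts was not tested.

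The replicate numbers of the titles did not pair the libraries, which came from different animals: deviations of same-numbered libraries correlated at 0.038, 0.049, -0.078 and -0.014. With limma on log2 ratios to Adgre1, Lgals3 (2.36, adjusted p = 0.000127), Mmp12 (2.07, adjusted p = 0.000612) and Atp6v0d2 (1.98, adjusted p = 0.000982) were called higher and Lipa lower (-1.34, adjusted p = 0.0239). The share of all genes called in that fit was not counted. With the replicate block, 2557 genes, 9 markers and 90 listed genes were called. Relative to Adgre1, Lipa lost its call with the block (-1.48, adjusted p = 0.0936), and the markers called higher kept theirs.

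Pparg, at -0.39 and not called, went to 0.76 with the muscle score, but was called lower with every gene of at least 1 count (-0.43, adjusted p = 0.0468) and without db/db 2 (-0.82, adjusted p = 0.0218). Genes with values near 0 changed sign: Lipe to -0.0094 with every gene of at least 1 count, and Tubb5 to 0.027 with at least 10 counts in every library. Tfe3, at -0.26 and not called, went to 0.15 with the muscle score. Leaving out a library gave -0.022 to 0.44 for Abca1, -0.21 to 0.14 for Tfeb, -0.13 to 0.023 for Scarb2, -0.049 to 0.073 for Lipe and -0.14 to 0.067 for Tubb5. Depth limits Spp1 and the WT levels of Trem2, Itgax, Mmp12 and Atp6v0d2, which rest on 1-4 counts over all WT libraries.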

Other observations

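Genes of a resident and perivascular macrophage list, which shares C1qa, C1qb and C1qc with the general list, also rose in db/db BAT. Of 13 listed genes of resident and perivascular macrophages 12 were tested, 11 were higher and 0 lower (edgeR, median log2 fold change 1.98). Folr2, a folate receptor, had 1-11 counts in WT and 27-90 counts in db/db libraries (3.33 ± 0.55, SE, adjusted p = 0.000199, or 4.56 without WT 4), and Lyve1, a hyaluronan receptor that lymphatic endothelium also carries, was higher by 2.94 ± 0.28 (adjusted p = 6.53e-07). Of 12 monocyte genes 7 were tested, with 4 higher and 1 lower. Ly6c2 and Ccr2, which define inflammatory monocytes, were among those too low to test, at 0-8 and 2-7 counts in WT and 1-15 and 4-21 counts in db/db libraries. The lower gene was Nr4a1, an early response gene and a factor of patrolling monocytes, which fell by 2.84 ± 0.68 (adjusted p = 0.00439). WT 1 had 3 counts of it and the other WT libraries 159-271, and the call ended with voom (-2.2, adjusted p = 0.252) and with the muscle score (-2.59, adjusted p = 0.236).

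Of the genes of the factors that bind CLEAR and M-box sites, Tfeb, Tfe3 and Mitf were tested. Mitf gave 0.73 ± 0.27 (adjusted p = 0.0502) and was called higher with at least 10 counts in every library (0.78, adjusted p = 0.0317), with the replicate block (0.75, adjusted p = 0.037) and without WT 3 or db/db 2 (0.87 and 0.82, adjusted p = 0.036 and 0.0432). Tfeb gave -0.06 ± 0.32 (adjusted p = 0.91) and Tfe3 gave -0.26 ± 0.20 (adjusted p = 0.375). Of the 14 listed genes of lipid efflux and of these factors 11 were tested, with 2 higher, 2 lower and a median log2 fold change of -0.06. The lower genes were Npc1 and Nr1h2, an oxysterol receptor (-0.57, adjusted p = 0.028), whose call ended without WT 2, WT 4, db/db 1 or db/db 4 (-0.58 to -0.44, adjusted p = 0.0546-0.0867) and with the muscle score (-0.68, adjusted p = 0.396). Nceh1, an enzyme that frees stored cholesterol, was higher by 2.08 ± 0.46 (adjusted p = 0.00235, or 2.74 without WT 2), and Abca1, the cholesterol exporter, gave 0.19 ± 0.29 (adjusted p = 0.681). Of 10 proliferation genes 4 were tested and Cdk1 alone was higher (1.02 ± 0.33, adjusted p = 0.0277). That call ended without WT 1, WT 2, WT 3, db/db 3 or db/db 4 (0.86-1.02, adjusted p = 0.0562-0.081), with every gene of at least 1 count admitted (0.98, adjusted p = 0.0707) and with the muscle score (0.95, adjusted p = 0.509). Mki67 was too low to test, at 0-1 counts in WT and 3-18 counts in db/db libraries, and was called higher with every gene of at least 1 count admitted (4.33, adjusted p = 0.000838).

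Markers of further cell types moved as well, and their part in the marker levels was not tested. Of 8 fibroblast and progenitor genes 7 were higher, of which Dcn (0.41, adjusted p = 0.574) and Col1a2 (0.93, adjusted p = 0.207) lost their calls with the muscle score. Of 7 endothelial genes 3 were lower and 0 higher. With the muscle score the calls of these 3, Kdr (-0.72, adjusted p = 0.217), Tek (-2.14, adjusted p = 0.0673) and Emcn (-0.64, adjusted p = 0.642), ended, and that of Tek also without WT 4 (-0.83, adjusted p = 0.125) or db/db 2 (-1.11, adjusted p = 0.0545). Of 8 tested brown adipocyte genes 4 were lower and 1 higher. With the muscle score the calls of Ucp1 (-0.33, adjusted p = 0.683), Cidea (-0.78, adjusted p = 0.148) and Plin1, the higher one (0.59, adjusted p = 0.289), ended, and that of Ucp1 also without WT 4 (-0.55, adjusted p = 0.0707) or db/db 3 (-0.55, adjusted p = 0.0612). Of 8 neutrophil genes 2 were tested and S100a8 was higher (2.72, adjusted p = 0.000201), and of 10 T and B cell genes 0 passed the filter, with Cd79a at 0 counts in all libraries.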
